A study of Mus musculus with 18 samples.

Results

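RNA for glucose uptake, glycolysis and the pentose phosphate pathway was followed in lung tumours and normal lung of B6C3F1/N mice, a hybrid between inbred strains that is widely used to test substances for carcinogenicity. The set was a list of 39 genes that runs from the glucose transporters to lactate export and takes in pyruvate entry into mitochondria, NADPH supply, glycogen, and acid and hypoxia genes. A gene was taken from the list where a probe set of the array carried its symbol alone, which held for 38 of the 39 genes among 18193 genes tested; Gpi1 was not analysed here. Levels came from an Affymetrix mouse 3' expression array and are on the log2 scale, so that a difference of 1 is a 2-fold change. The 18 samples formed groups of 6 arrays each: lung tumours of mice that had inhaled cobalt metal aerosol (cobalt tumours), spontaneous lung tumours, which arose in the absence of cobalt (spontaneous tumours), and lung of vehicle control mice (control lung). All were B6C3F1/N mice from a study begun at 5 to 6 weeks of age, in which cobalt concentrations in the air went up to 5 mg/m3 and exposure ran for 6 hours on 5 days a week, for at most 105 weeks. Dose, sex and age at death are not in the labels of the single samples, nor is it stated whether each array stands for another mouse. The p-values therefore measure the spread between these arrays, which may in part be technical.

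Glycolysis splits glucose into pyruvate in the cytosol, with hexokinase, phosphofructokinase and pyruvate kinase as its main points of control, and lactate dehydrogenase turns pyruvate into lactate for export. A side branch, the pentose phosphate pathway, makes NADPH for synthesis and antioxidant defence and ribose for nucleotides. Many genes of the pathway are targets of the hypoxia-inducible factor HIF, which cobalt ions are known to stabilise in cultured cells, and raised glycolysis is a common trait of tumours.

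The values are for RNA of whole tissue pieces, so fewer cells of a type and less RNA per cell cannot be told apart. The means of 7 lung epithelial markers lay at 12.59 to 12.70 in control lung. They were at 11.78 to 12.79 in cobalt tumours and 11.66 to 12.66 in spontaneous tumours. Only spontaneous tumour 4 (12.66) lay within the control range, and cobalt tumour 6 (12.79) lay above it. All other tumours of both groups had a mean below every control lung. In each tumour group 2 of the 7 markers were called lower and 1 higher. The marker Scgb1a1 was at 9.97 and 10.27 in cobalt tumours 1 and 4, against 14.84 to 15.05 in control lung. Cobalt tumour 6 had a mean r of 0.971 with the control lungs and of 0.954 with the other cobalt tumours, and it had the highest endothelial marker mean of the 12 tumours (10.59). Control lung 1 had a neutrophil marker mean of 12.85, against 7.20 to 9.09 in the other control lungs. Xist was above a log2 level of 10 in 4 cobalt tumours, 2 spontaneous tumours and 6 control lungs. Sex may therefore differ between tumours and control lung, and the labels do not give it. It was not a factor in the main fit. Fits with the Y-linked RNA level as a covariate, or with only the high-Xist arrays, were run as alternatives. Control lungs 5 and 6 were the closest pair (r = 0.9963) but held different values, and each was counted. Control lung 6 is called a spontaneous tumour in its description and a control in its other labels, which were followed.

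Of the 38 measured genes, 17 were called higher in cobalt tumours than in control lung, where 14.7% of all genes were called higher, and 3 were called lower, where the share of all genes was 19.3%. In spontaneous tumours 16 were called higher, with a share of 16.4% of all genes, and 2 lower, with a share of 18.2%. Calls are adjusted p-values under 0.05 from limma over all 18193 genes, and both comparisons use the same 6 control lungs. The list was chosen with earlier results of these data known. Only 2 of the 38 genes were among the 6064 dimmest. Without those 6064, genes called in either direction went from 6183 to 5424 in cobalt and from 6295 to 5441 in spontaneous tumours. The share of genes called is thus higher among brighter genes than among all genes. The list's median log2 difference was 0.50 in cobalt tumours and 0.80 in spontaneous tumours, where the median over all genes was -0.03 in each. Beside this stood lower markers of other lung cells. Endothelial marker means were 7.31 to 10.59 in cobalt tumours, 7.70 to 9.55 in spontaneous tumours and 11.54 to 11.87 in control lung, with 8 of 8 markers called lower in each tumour group. Smooth muscle means were 7.51 to 8.39, 7.27 to 8.47 and 9.89 to 10.58 in the same order, and ciliated cell means 5.78 to 8.57, 6.19 to 7.51 and 8.99 to 9.47, with 6 of 6 markers of each list called lower in each tumour group. Fibroblast means were 7.18 to 10.29, 7.09 to 9.61 and 10.38 to 10.83, with 4 of 6 markers called lower in each and 1 higher in spontaneous tumours. Macrophage lists went partly the other way. Of 6 other macrophage and monocyte markers, 3 were called higher in each tumour group and 2 lower in cobalt tumours. Of 7 alveolar macrophage markers, 1 was called higher and 1 lower in cobalt tumours, and 3 higher in spontaneous tumours. The part of cell composition in the calls of the pathway genes was not tested. Changes of at least 2-fold upwards were called for 14 genes in cobalt tumours (4.05% of all genes) and 15 in spontaneous tumours (4.15%). Every cobalt tumour lay above every control lung for 13 genes (8.10% of all genes), and every spontaneous tumour did so for 16 (9.21%). The reverse, every tumour below every control lung, held for 2 genes in cobalt tumours (10.8% of all genes) and 1 in spontaneous tumours (11.9%). Of the genes called that had several probe sets, 11 in the cobalt and 10 in the spontaneous comparison, all had probe sets of 1 sign.

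**Figure D1:**
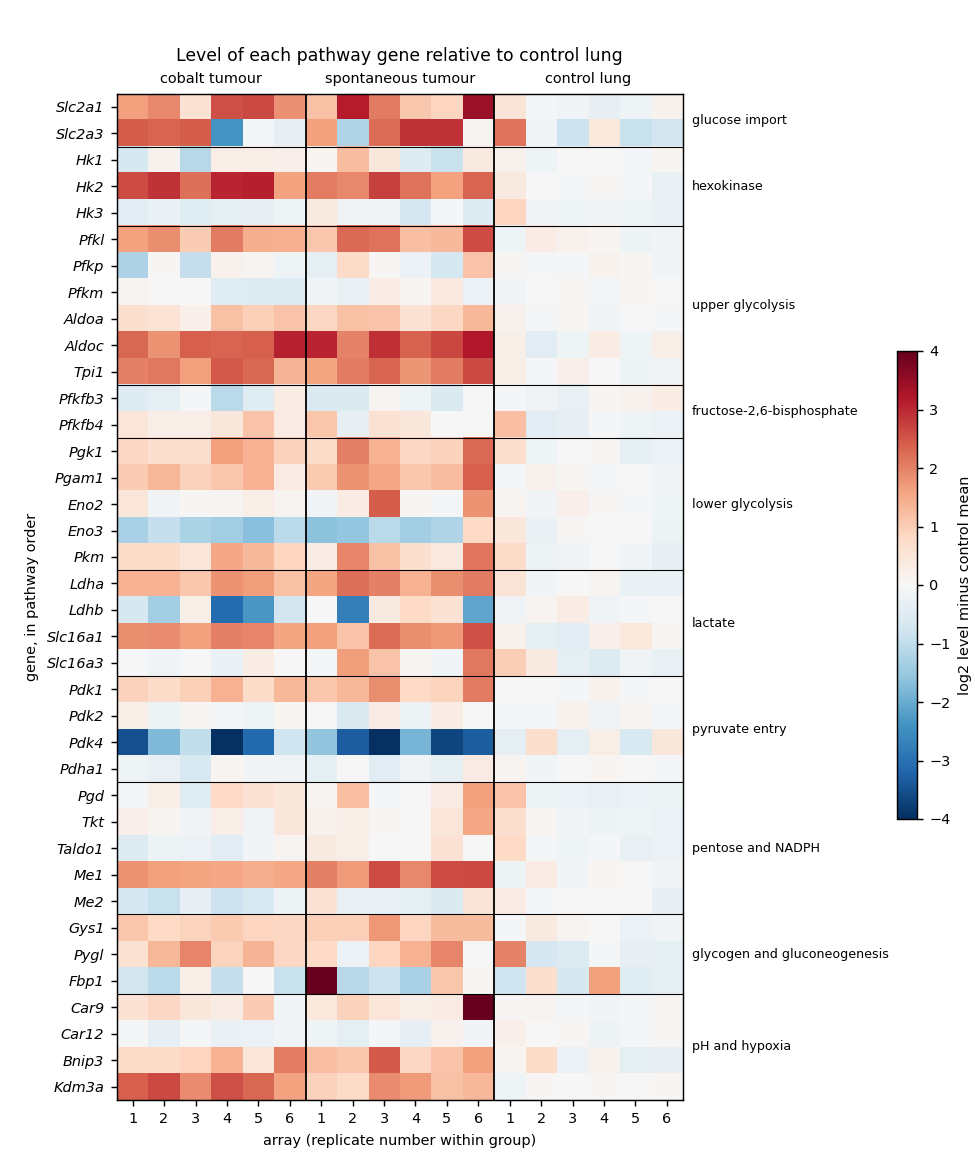
Log2 level of each of the 38 genes minus its control mean, by array, in pathway order from glucose import (top) to acid and hypoxia genes (bottom), with 6 cobalt tumours, 6 spontaneous tumours and 6 control lungs from left to right. Colours end at 4 and -4, and differences beyond these have the end colour, such as Car9 in spontaneous tumour 6, which was at 11.09.

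**Figure D2:**
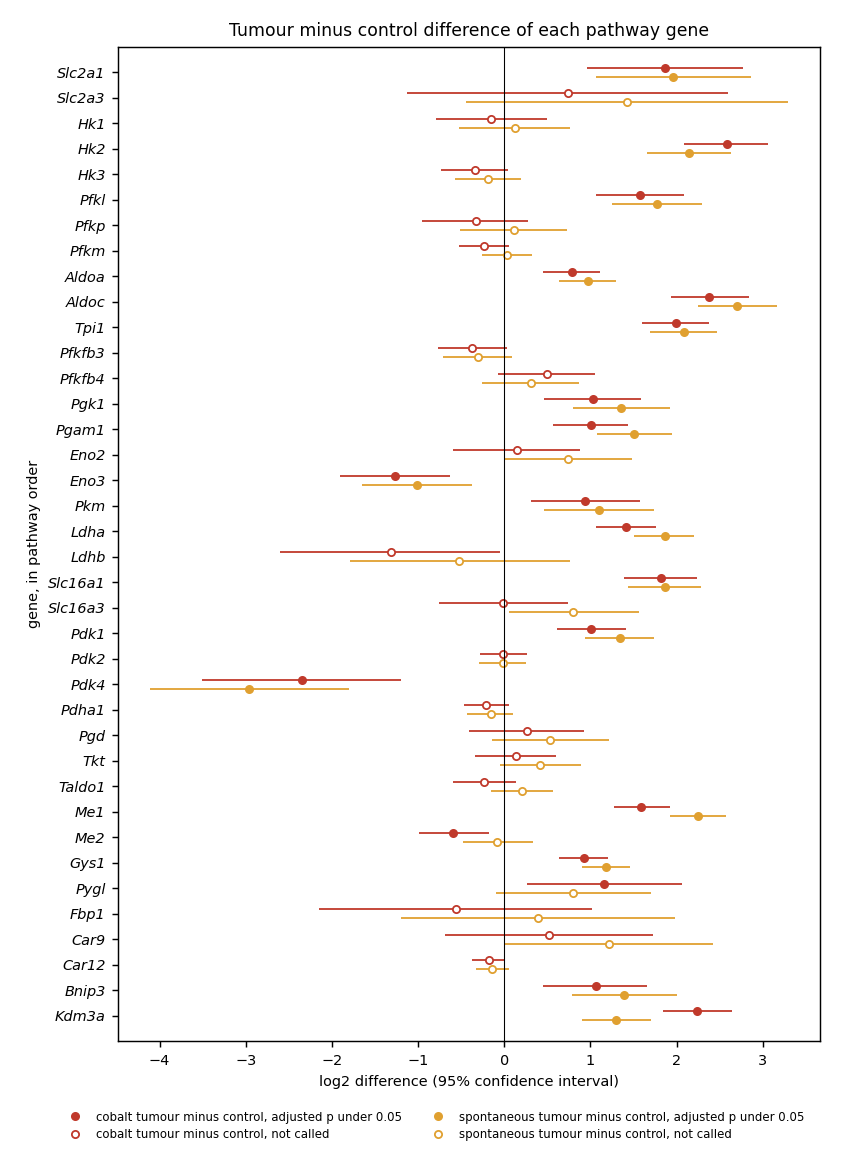
Log2 difference of each gene between cobalt tumours and control lung (red) and between spontaneous tumours and control lung (yellow), with its 95% confidence interval from limma. Filled points passed the adjusted p threshold of 0.05, among them Hk2 at 2.58 and 2.14 and Pdk4 at -2.35 and -2.96, and open points did not.

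Because many genes of the list are known HIF targets, the 250 bases before each listed gene's start were searched for the core of the HIF binding site, ACGTG with A or G as its first letter, on both strands. The windows came from RefSeq (GRCm38.p6), in which 37 of the 39 genes, all but Slc2a3 and Me2, matched and gave 53 windows. The core was in 37 of the 53 windows (69.8%) and in 38.6% of all 32851 windows, and ACGTG alone in 37.7% against 16.6%. Windows of the listed genes were also richer in G and C, with a median of 59.6% against 52.4%, and the part of this in the motif share was not tested. The palindrome CACGTG, which contains ACGTG on both strands, was in 6 windows (11.3%, against 6.0% of all windows). The antioxidant response element core TGACNNNGC was in 4 windows (7.5%, against 10.2%). A match describes letters only and is no evidence of binding. The last 150 bases before the start follow for genes that were among those called higher (Slc2a1, Hk2, Tpi1, Pgk1, Ldha and Bnip3), for Pdk4, which was called lower, and for Ldhb, the isoform set against Ldha. They are written 5′ to 3′ on the gene's strand, with the core in capitals, read on either strand.
Slc2a1, chr4:119108595-119108744, plus strand: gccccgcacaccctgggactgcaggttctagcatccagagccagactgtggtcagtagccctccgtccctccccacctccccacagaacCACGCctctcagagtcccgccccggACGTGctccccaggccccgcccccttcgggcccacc
Hk2, chr6:82774455-82774604, minus strand: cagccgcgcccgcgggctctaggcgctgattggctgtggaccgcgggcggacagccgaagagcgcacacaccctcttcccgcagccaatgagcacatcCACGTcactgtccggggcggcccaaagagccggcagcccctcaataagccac
Tpi1, chr6:124814159-124814308, minus strand: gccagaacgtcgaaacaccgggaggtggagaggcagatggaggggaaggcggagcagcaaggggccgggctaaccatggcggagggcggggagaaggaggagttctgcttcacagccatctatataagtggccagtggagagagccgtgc
Pgk1, chrX:106186950-106187099, plus strand: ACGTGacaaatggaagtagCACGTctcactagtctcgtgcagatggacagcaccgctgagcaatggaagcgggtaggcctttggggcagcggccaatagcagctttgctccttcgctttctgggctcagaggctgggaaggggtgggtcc
Ldha, chr7:46845654-46845803, plus strand: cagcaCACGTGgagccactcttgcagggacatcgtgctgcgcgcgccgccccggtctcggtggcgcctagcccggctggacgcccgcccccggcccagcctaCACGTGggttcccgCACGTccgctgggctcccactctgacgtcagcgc
Bnip3, chr7:138909507-138909656, minus strand: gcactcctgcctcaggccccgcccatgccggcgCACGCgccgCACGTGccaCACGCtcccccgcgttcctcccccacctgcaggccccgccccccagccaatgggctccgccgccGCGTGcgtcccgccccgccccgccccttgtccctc
Ldhb, chr6:142507958-142508107, minus strand: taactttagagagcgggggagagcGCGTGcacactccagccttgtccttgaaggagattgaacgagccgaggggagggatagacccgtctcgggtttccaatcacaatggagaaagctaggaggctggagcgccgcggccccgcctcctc
Pdk4, chr6:5496279-5496428, minus strand: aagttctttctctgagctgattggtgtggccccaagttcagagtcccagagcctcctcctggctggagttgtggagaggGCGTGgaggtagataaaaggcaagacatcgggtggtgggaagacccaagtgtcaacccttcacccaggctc
Counting each strand, Ldha and Bnip3 held 5 matches each, with 2 CACGTG sites in Ldha and 1 in Bnip3, Slc2a1 and Pgk1 held 2, and Hk2 held 1 in these 150 bases. Tpi1 held none, and Ldhb and Pdk4 held 1 each. In the whole 250 bases of at least 1 window, 15 of the 17 genes called higher in a tumour group held the core. So did 2 of the 2 genes called lower that had a window. Of the 17 genes with a window that were called in neither tumour group, 14 held it, among them Hk1, Pfkp and Pfkm. Genes with several windows had more places for a match, and the sequences above show 1 window per gene.

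Among the genes of glucose carriers and hexokinases, RNA of Slc2a1 and Hk2 rose, and Slc2a3, Hk1 and Hk3 were not called. Slc2a1 encodes GLUT1, the widespread glucose carrier. Its level ran from 8.76 to 10.80 with a median of 10.05 in cobalt tumours, from 9.02 to 11.62 with a median of 9.80 in spontaneous tumours, and from 7.85 to 8.68 with a median of 8.08 in control lung. No tumour of either group fell within the control range, and the log2 difference was 1.87 ± 0.43 in cobalt tumours (SE, 3.64-fold, adjusted p = 0.0025) and 1.96 ± 0.43 in spontaneous tumours (3.89-fold, 0.00173). Without cobalt tumour 6 and spontaneous tumours 2 and 6 the difference in spontaneous tumours was 1.29 (adjusted p = 0.00779). Hk2 encodes the inducible hexokinase that sits on mitochondria. It was measured at 9.93 to 11.45 with a median of 11.07 in cobalt tumours, 9.94 to 11.06 with a median of 10.45 in spontaneous tumours and 8.05 to 8.70 with a median of 8.31 in control lung. All 12 tumours stood at least 1 log2 unit above the highest control lung, and the differences were 2.58 ± 0.23 (5.96-fold, adjusted p = 4.8e-07) and 2.14 ± 0.23 (4.41-fold, 2.68e-06). Hk1, the housekeeping hexokinase, was at 8.51 to 9.90, 8.73 to 10.87 and 9.47 to 9.80 in cobalt tumours, spontaneous tumours and control lung, with differences of -0.15 and 0.12 that were not called. Hk3, a hexokinase of myeloid cells, differed by -0.34 and -0.19, not called.

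Slc2a3, which encodes the high-affinity carrier GLUT3, was not called in either comparison and spread more widely among tumours than any gene called higher. In cobalt tumours 1 to 6 it was at 11.63, 11.53, 11.61, 6.79, 9.16 and 8.85, and in spontaneous tumours 1 to 6 at 10.82, 7.98, 11.43, 12.09, 12.08 and 9.29. The control lungs held 11.38 in control 1 and 8.31 to 9.60 in the other 5. Values of 3 cobalt and 3 spontaneous tumours lay above all control lungs, and 1 of each group lay below them. The differences were 0.74 ± 0.89 and 1.42 ± 0.89, and without control lung 1 they were 1.17 (adjusted p = 0.354) and 1.86 (0.124). In spontaneous tumours Slc2a3 was called higher with array weights (2.22, adjusted p = 0.0228). It was also called without cobalt tumour 6 and spontaneous tumours 2 and 6 (2.41, adjusted p = 0.0412). Spontaneous tumours 2 and 6 held the lowest values of their group, 7.98 and 9.29, so leaving them out raises the difference.

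**Figure D3:**
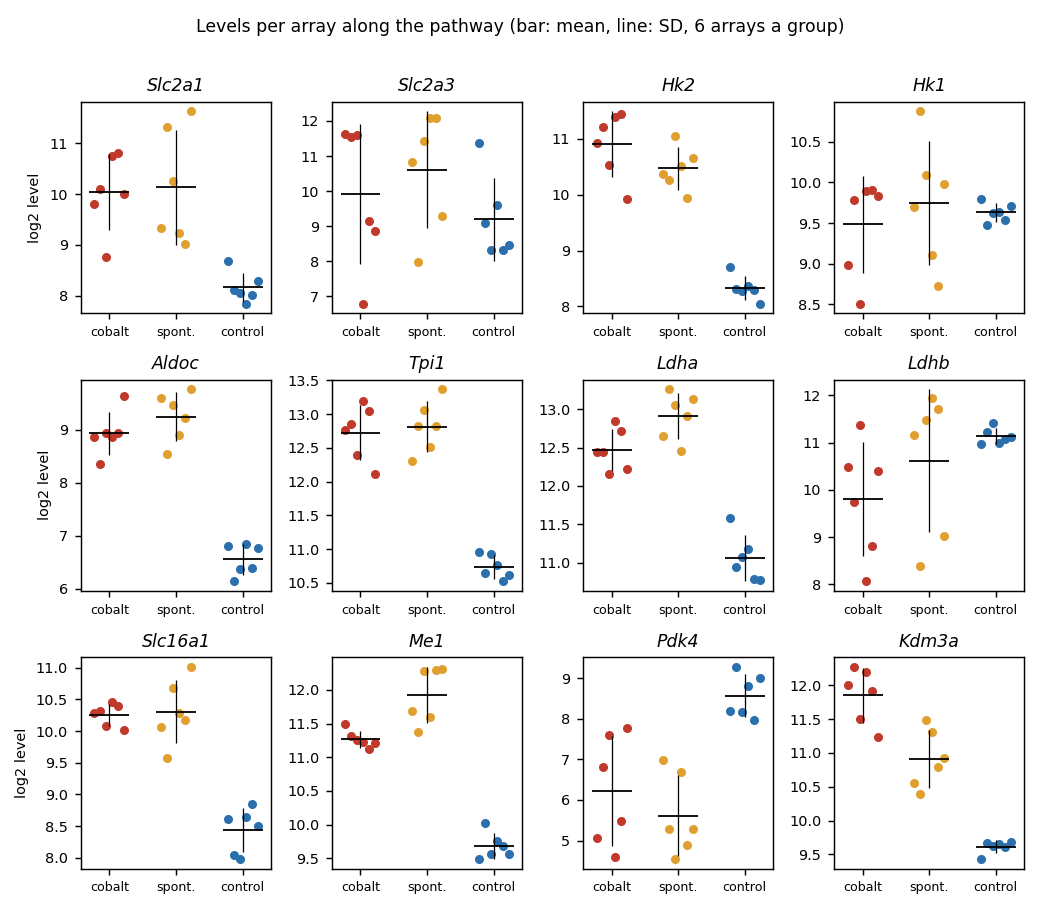
Log2 level of 12 genes along the pathway in cobalt tumours, spontaneous tumours and control lung, with a point for each array, a bar for the mean and a line for the SD over 6 arrays. Slc2a1, Hk2, Aldoc, Tpi1, Ldha, Slc16a1, Me1 and Kdm3a have every tumour above every control lung, Pdk4 has every tumour below, and Slc2a3, Hk1 and Ldhb overlap.

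In upper glycolysis 4 of 6 measured genes rose in each tumour group, where 14.7% of all genes were called higher in cobalt and 16.4% in spontaneous tumours. Pfkl, the liver type subunit of phosphofructokinase, was at 10.32 to 11.38 with a median of 10.85 in cobalt tumours, 10.37 to 11.91 with a median of 11.04 in spontaneous tumours and 9.09 to 9.59 with a median of 9.28 in control lung. The groups of tumours did not overlap with the control lungs, with differences of 1.57 ± 0.25 (2.98-fold, adjusted p = 9.68e-05) and 1.77 ± 0.25 (3.41-fold, 3.22e-05). The platelet and muscle type subunits, Pfkp and Pfkm, differed by -0.33 and -0.24 in cobalt tumours and by 0.11 and 0.03 in spontaneous tumours, and none of these differences was called. Aldoc, an aldolase best known from brain, had, by its brightest probe set, the largest rise in spontaneous tumours among the 38 genes. Its levels were 8.36 to 9.64 with a median of 8.90 in cobalt tumours, 8.54 to 9.77 with a median of 9.36 in spontaneous tumours and 6.14 to 6.84 with a median of 6.58 in control lung. Every tumour was more than 1.5 log2 units above every control lung, the differences being 2.38 ± 0.22 (5.21-fold, adjusted p = 5.63e-07) and 2.70 ± 0.22 (6.5-fold, 1.37e-07). Its second and dimmer probe set also passed but gave only 0.94 (adjusted p = 0.00356) and 0.77 (0.013), so that the size and the rank rest on the probe set. Aldoa, the common aldolase, rose by 0.78 ± 0.16 (1.72-fold, adjusted p = 0.000916) and 0.97 ± 0.16 (1.96-fold, 0.000135), also without overlap.

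Tpi1, the isomerase that joins the 3-carbon branches, lay at 12.11 to 13.20 with a median of 12.81 in cobalt tumours, at 12.31 to 13.37 with a median of 12.82 in spontaneous tumours and at 10.52 to 10.96 with a median of 10.70 in control lung. Again no tumour reached down to the control range, and the rise was 1.99 ± 0.19 (3.97-fold, adjusted p = 7.57e-07) and 2.08 ± 0.19 (4.22-fold, 4.42e-07). Pfkfb3 and Pfkfb4 make and break fructose 2,6-bisphosphate, the activator of phosphofructokinase. Neither was called, with -0.37 for Pfkfb3 and 0.49 for Pfkfb4 in cobalt tumours, and -0.31 and 0.31 in spontaneous tumours. Without control lung 1, in which Pfkfb4 was at 9.99 against 8.38 to 8.76 in the other control lungs, Pfkfb4 was called higher in cobalt tumours (0.73, adjusted p = 0.0156). Pfkfb3 was called lower in cobalt tumours when cobalt tumour 6 was left out (-0.50, adjusted p = 0.0316), and also by its second brightest probe set (-0.48, 0.0342).

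In lower glycolysis Pgk1, Pgam1 and Pkm rose and Eno3 fell. Pgk1, the kinase of the first ATP-yielding step, was at 11.64 to 12.62 with a median of 11.84 in cobalt tumours, 11.70 to 13.23 with a median of 12.12 in spontaneous tumours and 10.59 to 11.65 with a median of 10.89 in control lung. Control lung 1 alone reached the lowest tumours, so that 4 of 6 cobalt tumours and all 6 spontaneous tumours lay above every control, with differences of 1.03 ± 0.27 (2.04-fold, adjusted p = 0.00602) and 1.36 ± 0.27 (2.57-fold, 0.000736). Pgam1, a phosphoglycerate mutase, had 9.66 to 10.73 with a median of 10.38 in cobalt tumours, 10.39 to 11.73 with a median of 10.73 in spontaneous tumours and 9.24 to 9.51 with a median of 9.33 in control lung. It did not overlap with control lung and rose by 1.01 ± 0.21 (2.01-fold, adjusted p = 0.000992) and 1.51 ± 0.21 (2.85-fold, 2.56e-05). Pkm, whose splice forms are the pyruvate kinases M1 and M2 and are not told apart by this gene-level value, was at 11.30 to 12.35 with a median of 11.63 in cobalt tumours. Spontaneous tumours held 11.12 to 12.95 with a median of 11.72, and control lung 10.49 to 11.57 with a median of 10.69. Control lung 1 was the control at 11.57, the other 5 being at 10.84 or less, and the differences were 0.94 ± 0.30 (1.92-fold, adjusted p = 0.022) and 1.10 ± 0.30 (2.14-fold, 0.00902). Without cobalt tumour 4 the adjusted p of Pkm in cobalt tumours was 0.055, and without control lung 1 it was 0.0108.

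Eno3 encodes the muscle enolase. It was at 7.05 to 7.83 with a median of 7.46 in cobalt tumours, 7.09 to 9.52 with a median of 7.45 in spontaneous tumours and 8.47 to 9.18 with a median of 8.72 in control lung. All cobalt tumours and 5 of 6 spontaneous tumours were below all control lungs, and spontaneous tumour 6 was above them. The fall was -1.27 ± 0.31 (2.41-fold, adjusted p = 0.00347) in cobalt tumours and -1.01 ± 0.31 (2.01-fold, 0.0161) in spontaneous tumours. The call in spontaneous tumours was not kept with the Y-linked RNA level as a covariate (adjusted p = 0.196), with only the high-Xist arrays (0.647) or in the exact permutation test (0.0636). Beside this stood the heart muscle markers, of which 7 of 8 were called lower in each tumour group, and whose mean was 5.10 to 7.18 in cobalt tumours, 5.11 to 6.92 in spontaneous tumours and 9.28 to 9.90 in control lung. Skeletal muscle markers were at 5.14 to 5.44, 5.16 to 5.34 and 5.41 to 5.71. The part of these cells in the fall of Eno3 was not tested, and spontaneous tumour 6, with the highest Eno3, had means of 5.52 and 5.34 for the heart and skeletal muscle markers. Eno2, the neuronal enolase and the only other enolase gene of the list, was among the 6064 dimmest genes and not called; it was at 7.63 in spontaneous tumour 3 and 6.98 in spontaneous tumour 6 and at 5.01 to 5.69 in the other 16 arrays.

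For lactate, the muscle type dehydrogenase subunit Ldha and the carrier Slc16a1 rose. Ldha, which favours lactate formation, ran from 12.15 to 12.85 with a median of 12.44 in cobalt tumours, from 12.46 to 13.26 with a median of 12.99 in spontaneous tumours and from 10.78 to 11.58 with a median of 11.01 in control lung. The lowest tumour of either group was above control lung 1, the highest control, and the differences were 1.41 ± 0.16 (2.67-fold, adjusted p = 5.03e-06) and 1.86 ± 0.16 (3.62-fold, 3.75e-07). Slc16a1 encodes the lactate carrier MCT1. Its range was 10.02 to 10.45 with a median of 10.31 in cobalt tumours, 9.58 to 11.01 with a median of 10.23 in spontaneous tumours and 7.98 to 8.85 with a median of 8.56 in control lung. The rise was 1.82 ± 0.20 (3.52-fold, adjusted p = 3.48e-06) and 1.86 ± 0.20 (3.63-fold, 2.82e-06), without overlap, while a second and much dimmer probe set of the gene gave 0.11 (0.401) and 0.19 (0.113).

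The heart type subunit Ldhb, which favours lactate use, was not called but differed widely among tumours. Cobalt tumours 1 to 6 had 10.49, 9.74, 11.38, 8.06, 8.81 and 10.39, spontaneous tumours 1 to 6 had 11.15, 8.39, 11.48, 11.94, 11.71 and 9.03, and control lungs lay between 10.98 and 11.42. Below all control lungs were 5 cobalt tumours and spontaneous tumours 2 and 6, and 3 spontaneous tumours lay above them. The difference was -1.32 ± 0.60 in cobalt tumours (adjusted p = 0.1) and -0.52 ± 0.60 in spontaneous tumours. In cobalt tumours it passed without cobalt tumour 3 (-1.64, adjusted p = 0.0475) and in 4 other alternative settings, the lowest adjusted p being 0.0137. Slc16a3, which encodes MCT4, a lactate exporter of glycolytic cells, differed by -0.01 ± 0.36 in cobalt tumours and 0.80 ± 0.36 in spontaneous tumours, and neither was called. Spontaneous tumours 2, 3 and 6 had 8.58, 8.04 and 9.01, above all control lungs. Control lung 1 had 7.90 against 6.36 to 7.27 in the other control lungs, and without it Slc16a3 was called higher in spontaneous tumours (1.00, adjusted p = 0.0376), as it was without spontaneous tumour 1 (0.0466) or 5 (0.0428).

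At the entry of pyruvate into mitochondria, members of the pyruvate dehydrogenase kinase family moved in opposite directions. These kinases switch off pyruvate dehydrogenase. Pdk1, the form known as a HIF target, was at 8.63 to 9.30 with a median of 8.84 in cobalt tumours, 8.70 to 9.98 with a median of 9.13 in spontaneous tumours and 7.83 to 8.05 with a median of 7.90 in control lung. It rose without overlap by 1.01 ± 0.19 (2.01-fold, adjusted p = 0.000494) and 1.34 ± 0.19 (2.53-fold, 3.77e-05). Pdk4, the form induced by fasting and fatty acids, had 4.59 to 7.78 with a median of 6.14 in cobalt tumours, 4.54 to 6.99 with a median of 5.29 in spontaneous tumours and 7.96 to 9.28 with a median of 8.50 in control lung. Every tumour was below every control lung, with a fall of -2.35 ± 0.55 (5.11-fold, adjusted p = 0.00276) and -2.96 ± 0.55 (7.76-fold, 0.000445). The lowest tumour values were as low as those of the dim genes Eno2 and Car12, which may lie at background, so that these folds may be too small and are not exact sizes. With only the high-Xist arrays the fall in cobalt tumours was -1.66 (adjusted p = 0.0188), and with the Y-linked RNA level as a covariate that in spontaneous tumours was -2.12 (0.0134). The highest Pdk4 among the cobalt tumours, 7.78, was in tumour 6. Its heart muscle (7.18), fibroblast (10.29) and adipocyte (6.14) marker means were the highest of that group. So were its means for lung epithelium, endothelium, smooth muscle, ciliated cells, red cells and neutrophils. Among spontaneous tumours the highest Pdk4, 6.99, was in tumour 1, whose heart muscle, fibroblast and adipocyte means were not the highest of its group. Adipocyte marker means were at 5.02 to 6.14 in cobalt tumours, 5.13 to 5.55 in spontaneous tumours and 5.84 to 7.10 in control lung, and the part of these cells in the fall of Pdk4 was not tested. Pdk2 differed by -0.01 and -0.02 and Pdha1, a subunit of pyruvate dehydrogenase itself, by -0.21 and -0.16, and none of these was called.

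Among pentose pathway and NADPH genes, the malic enzyme Me1 rose. The 3 pentose pathway genes of the list, Pgd, Tkt and Taldo1, were not called. The dehydrogenase of the pathway's first step is not among the 38 genes, and further pentose genes are given with the other genes of glucose metabolism. Me1, a cytosolic enzyme that makes NADPH from malate, was at 11.12 to 11.49 with a median of 11.24 in cobalt tumours, 11.37 to 12.31 with a median of 11.98 in spontaneous tumours and 9.49 to 10.02 with a median of 9.62 in control lung. All tumours were more than 1 log2 unit above the highest control lung, and the rise was 1.59 ± 0.15 (3.01-fold, adjusted p = 1.01e-06) and 2.25 ± 0.15 (4.74-fold, 2.66e-08). Me2, its mitochondrial relative, fell by 0.59 ± 0.19 in cobalt tumours (1.5-fold, adjusted p = 0.0239) and differed by -0.08 in spontaneous tumours, where its second brightest probe set gave -0.80 (adjusted p = 0.0112). The call of Me2 was lost when control lung 1 (adjusted p = 0.0571), cobalt tumour 2 (0.0558) or cobalt tumour 4 (0.0541) was left out, with the Y-linked RNA level as a covariate (0.064) and with only the high-Xist arrays (0.0658). Pgd, which takes the second NADPH-yielding step, differed by 0.26 ± 0.32 and 0.53 ± 0.32, Tkt, a transketolase, by 0.13 ± 0.22 and 0.42 ± 0.22, and Taldo1, a transaldolase, by -0.23 ± 0.17 and 0.20 ± 0.17.

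Among the control lungs, Pgd, Tkt and Taldo1 were highest in control lung 1. Without that array Pgd differed by 0.49 (adjusted p = 0.22) in cobalt and 0.76 (0.0536) in spontaneous tumours, Tkt by 0.27 (0.389) and 0.56 (0.0584), and Taldo1 by -0.07 (0.738) and 0.36 (0.0367). Taldo1 in spontaneous tumours was the only one of these that passed. The highest tumour values of Pgd, 12.01 and 12.43, were in spontaneous tumours 2 and 6, and Tkt was at 13.29 in spontaneous tumour 6 against 11.63 to 12.25 in the other 11 tumours.

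Of 3 glycogen and gluconeogenesis genes, 2 were called higher in cobalt tumours and 1 in spontaneous tumours, where 14.7% and 16.4% of all genes were called higher, and the call of Pygl depended on single arrays. Gys1, the glycogen synthase of most tissues, lay at 8.78 to 9.08 with a median of 8.86 in cobalt tumours, at 8.85 to 9.73 with a median of 9.10 in spontaneous tumours and at 7.75 to 8.33 with a median of 7.94 in control lung. It rose without overlap by 0.92 ± 0.13 (1.9-fold, adjusted p = 4.37e-05) and 1.18 ± 0.13 (2.27-fold, 4.13e-06). Pygl, the liver type phosphorylase that releases glucose from glycogen, was at 10.38 to 11.72 with a median of 10.86 in cobalt tumours, 9.54 to 11.70 with a median of 10.59 in spontaneous tumours and 9.08 to 11.75 with a median of 9.40 in control lung. Control lung 1 held the 11.75, higher than any tumour, and the other 5 were at 9.08 to 9.70. The difference was 1.16 ± 0.43 (2.23-fold, adjusted p = 0.0444) in cobalt tumours and 0.80 ± 0.43 (0.162) in spontaneous tumours. Without control lung 1 it was 1.56 (adjusted p = 0.00161) and 1.20 (0.0101). The cobalt call was lost when any one of control lungs 2 to 6, cobalt tumours 2 to 5 or spontaneous tumours 1 and 3 was left out, at adjusted p-values of 0.0524 to 0.1, and it was also lost with only the high-Xist arrays (0.058), with cyclic loess (0.0731) and in the exact permutation test (0.0805). Fbp1, which runs glycolysis backwards in gluconeogenesis, was not called. It was at 10.73 in spontaneous tumour 1 and at 5.02 to 7.94 in the other 17 arrays, and spontaneous tumour 1 also had the highest alveolar macrophage marker mean, 11.30 against 8.28 to 10.24 in the others. The part of those cells in that value was not tested.

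Of the acid and hypoxia genes Kdm3a and Bnip3 rose. Kdm3a, a histone demethylase gene induced by HIF, ran from 11.23 to 12.27 with a median of 11.97 in cobalt tumours, from 10.39 to 11.49 with a median of 10.86 in spontaneous tumours and from 9.43 to 9.69 with a median of 9.64 in control lung. All tumours were above all control lungs, with a rise of 2.24 ± 0.19 (4.72-fold, adjusted p = 2.7e-07) and 1.30 ± 0.19 (2.46-fold, 5.15e-05). Bnip3, a mitochondrial protein that promotes mitophagy in hypoxia, had 11.14 to 12.69 with a median of 11.46 in cobalt tumours, 11.48 to 13.11 with a median of 11.82 in spontaneous tumours and 10.30 to 11.37 with a median of 10.56 in control lung. Control lung 2 was the control at 11.37, above cobalt tumour 5, and the rise was 1.06 ± 0.29 (2.08-fold, adjusted p = 0.00802) and 1.39 ± 0.29 (2.63-fold, 0.00106). Car9, the carbonic anhydrase known as a HIF target, was not called in the fit over 18 arrays, at 0.52 ± 0.57 and 1.21 ± 0.57. It was at 6.12 to 7.25 in cobalt tumours, 6.49 to 7.15 in 5 spontaneous tumours, 11.09 in spontaneous tumour 6 and 6.11 to 6.35 in control lung. Without spontaneous tumour 6, Car9 was called higher in cobalt tumours (0.52, adjusted p = 0.0156) and in spontaneous tumours (0.48, 0.0321). Car12, a related enzyme, was among the 6064 dimmest genes too, at 4.52 to 5.06 over the 18 arrays.

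Isoforms of an enzyme or carrier were also set against each other within each array. For 10 pairs the log2 difference between the genes was taken and set to 0 at the control mean. Levels of different probe sets cannot be compared, and the value says only that one gene moved more than its partner. Hk2 over Hk1 shifted by 1.40 to 3.32 with a median of 2.83 in cobalt tumours and by 0.71 to 2.70 with a median of 2.13 in spontaneous tumours, against -0.36 to 0.19 in control lung. Pdk1 over Pdk4, in which the low Pdk4 values may be at background, had the widest shift, at 1.92 to 5.37 with a median of 3.17 in cobalt tumours, 2.66 to 5.88 with a median of 4.59 in spontaneous tumours and -0.72 to 0.53 in control lung. Me1 over Me2 stood at 1.72 to 2.52 in cobalt tumours, 1.42 to 3.21 in spontaneous tumours and -0.52 to 0.39 in control lung. Those 3 pairs and Eno2 over Eno3 had all 6 tumours of each group above all control lungs. Eno2 may lie at background. In cobalt tumours it differed by 0.15 and Eno3 by -1.27, so that this shift was mostly the fall of Eno3. Ldha over Ldhb did so in 6 cobalt and 5 spontaneous tumours, with a range of 0.86 to 4.86, 0.60 to 4.95 and -0.27 to 0.68 in cobalt tumours, spontaneous tumours and control lung. Aldoa over Aldoc was below all control lungs in 6 and 6 tumours, with medians of -1.54 and -1.82, and Slc16a3 over Slc16a1 in 6 and 4. Both shifts rest on the brightest probe sets of Aldoc and Slc16a1, whose second probe sets moved less. Slc2a1 over Slc2a3 had 3 cobalt and 2 spontaneous tumours above and 1 and 2 below all controls. Pfkp over Pfkm had 3 and 2 above and 2 and 4 below, with -1.35 to 0.66 in cobalt tumours, -1.10 to 1.36 in spontaneous tumours and -0.14 to 0.17 in control lung, so that no spontaneous tumour and 1 cobalt tumour lay within the control range. Pfkfb3 over Pfkfb4 had none above and 2 and 1 below.

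**Figure D4:**
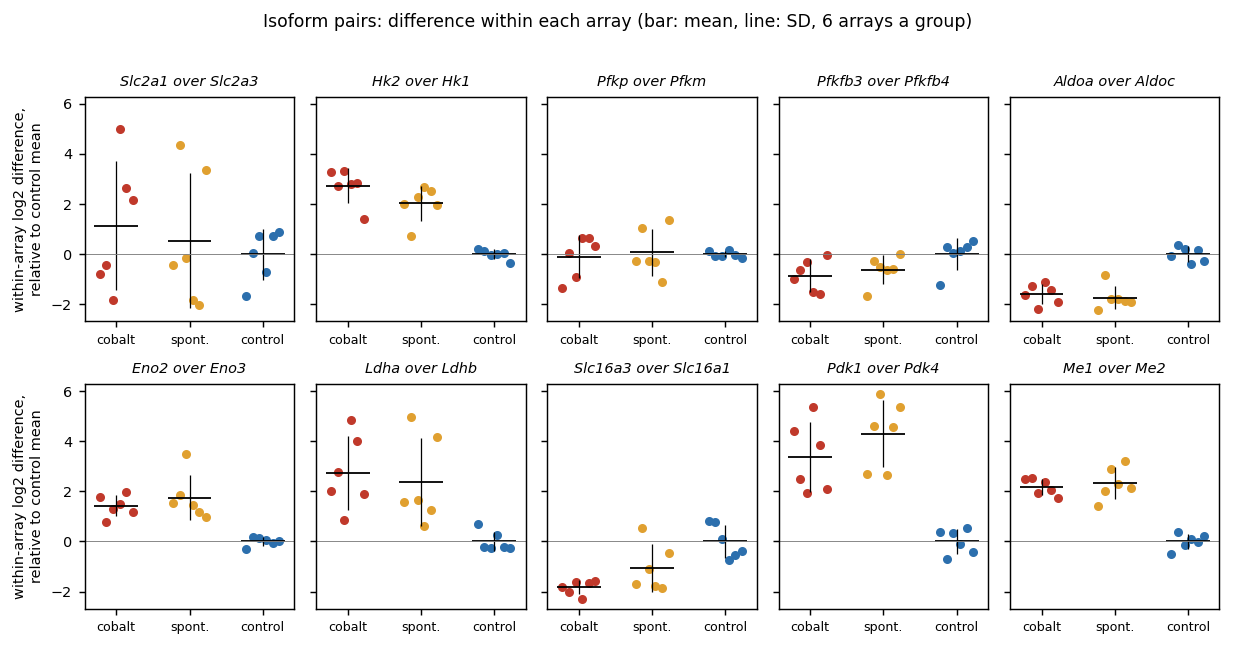
Within-array log2 difference between the genes of 10 isoform pairs, relative to the control mean, in cobalt tumours, spontaneous tumours and control lung, with a point for each array, a bar for the mean and a line for the SD over 6 arrays. Hk2 over Hk1, Eno2 over Eno3, Pdk1 over Pdk4 and Me1 over Me2 have every tumour above every control lung, and Aldoa over Aldoc has every tumour below. Eno2 and the low Pdk4 values may lie at background.

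Among the 12 tumours, several genes with a wide range were high or low in the same 4 arrays, 2 of each group. The 4 tumours with the lowest Ldhb were cobalt tumours 4 and 5 (8.06 and 8.81) and spontaneous tumours 2 and 6 (8.39 and 9.03). The same 4 tumours had the 4 highest levels of Slc2a1, at 10.75 and 10.80 in the cobalt and 11.31 and 11.62 in the spontaneous tumours. They also had the 4 highest levels of Pkm, at 12.35 and 12.11, and 12.78 and 12.95. The 4 highest levels of Pgd were again theirs, at 11.60 and 11.38, and 12.01 and 12.43. These genes were singled out after their values were seen, and the pattern is a description without a test. Other genes with a wide range did not share it in full. The 4 lowest Slc2a3 levels were in cobalt tumours 4, 5 and 6 (6.79, 9.16 and 8.85) and spontaneous tumour 2 (7.98). The highest Fbp1, 10.73, was in spontaneous tumour 1. The lung epithelial marker mean was 11.97 and 12.43 in these cobalt tumours and 11.80 and 11.66 in these spontaneous tumours, where the other 8 tumours had 11.78 to 12.79, and the part of cell composition was not tested. Over all 38 genes, spontaneous tumour 6 had the most genes above all control lungs, 26, and cobalt tumours 2 and 3 the fewest, 16 each, where the shares of all genes above all control lungs were 28.9%, 26.4% and 28.3%.

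Control lung 1 stood apart from the other control lungs in this pathway. It was the highest control for 20 of the 38 genes, against 15.9% of all genes. Its levels of neutrophil markers were high, with Ngp, a granule protein, at 14.09 and Camp, an antimicrobial peptide of granules, at 12.54. Hk3 was at 8.77 there against 7.63 to 7.81 in the other control lungs. Pgd was at 11.95 against 10.50 to 10.61, Tkt at 12.44 against 11.51 to 11.82, and Taldo1 at 11.53 against 10.42 to 10.69. The part of neutrophils in these levels was not tested. Without control lung 1 the counts were 18 genes called higher and 2 lower in cobalt tumours, and 19 higher and 2 lower in spontaneous tumours.

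**Figure D5:**
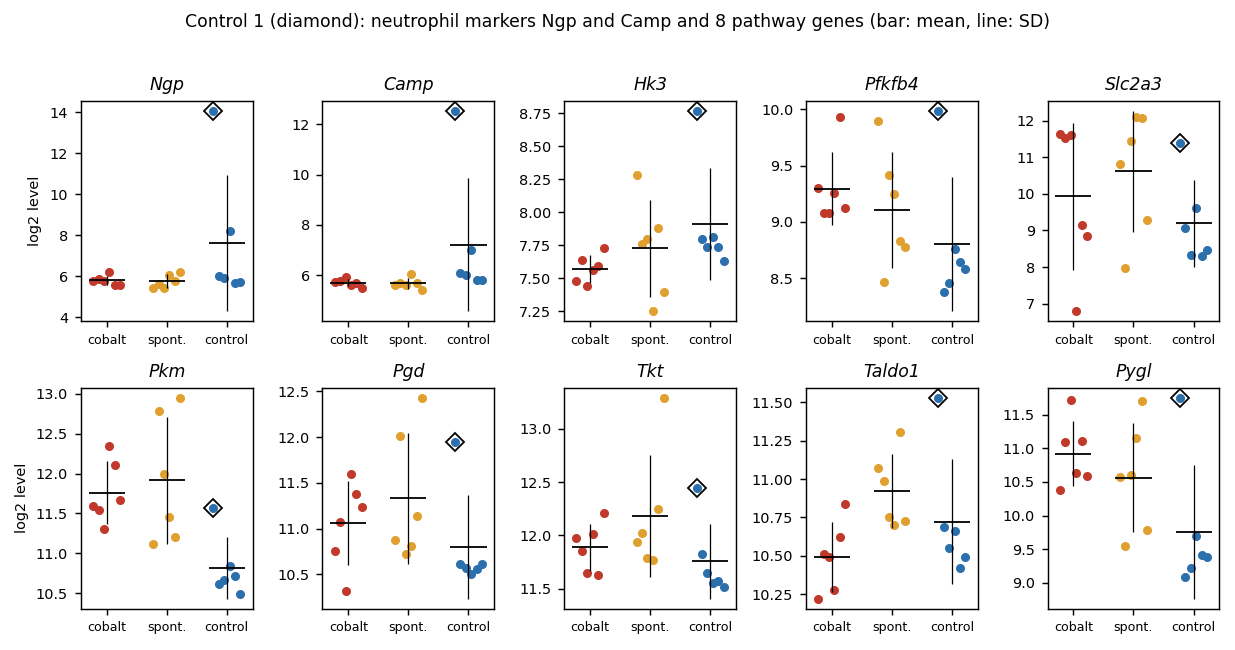
Log2 level of the neutrophil markers Ngp and Camp and of 8 genes of the pathway in cobalt tumours, spontaneous tumours and control lung, with a point for each array, a bar for the mean and a line for the SD over 6 arrays; the diamond marks control lung 1. Control lung 1 is the highest control for every gene shown, for example at 11.75 for Pygl against 9.08 to 9.70 in the other control lungs.

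Set against each other, cobalt and spontaneous tumours had 0 of the 38 genes called, where 0.0824% of all genes, 15 of 18193, were called by limma. At an unadjusted p under 0.05 there were 7 genes, against 11.6% of all genes, and the exact permutation test with adjustment over all genes called none, but its smallest possible p, 0.00216, can pass only if at least 788 genes reach it. The list's median difference, cobalt minus spontaneous, was -0.27, with a median over all genes of 0. The smallest p belonged to Kdm3a, which was 0.94 ± 0.19 higher in cobalt tumours (95% confidence interval 0.54 to 1.34, adjusted p = 0.0655), with 5 of 6 cobalt tumours above all spontaneous tumours. Kdm3a passed the threshold when cobalt tumour 6 (1.07, adjusted p = 0.0207), spontaneous tumour 3 (1.06, 0.0379) or spontaneous tumour 4 (1.02, 0.0423) was left out. Me1 was -0.65 ± 0.15 in cobalt tumours relative to spontaneous tumours (-0.98 to -0.33, adjusted p = 0.117), with 5 of 6 cobalt tumours below all spontaneous ones, and passed without spontaneous tumour 2 (-0.76, 0.0466). Ldha differed by -0.44 (-0.78 to -0.10, adjusted p = 0.292), Me2 by -0.51 (0.299) and Taldo1 by -0.43 (0.323). For Pfkl the interval was -0.71 to 0.32, for Tpi1 -0.48 to 0.30 and for Slc16a1 -0.47 to 0.38, which leaves differences of that size in either direction possible.

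The other 83 measured genes of glucose metabolism, from a list of 94, were called about as often as all genes. In cobalt tumours 10 (12.0%, against 14.7% of all genes) were called higher and 16 (19.3%, against 19.3%) lower, with a median log2 difference of 0.03. In spontaneous tumours 17 (20.5%, against 16.4%) were called higher and 18 (21.7%, against 18.2%) lower, with a median of 0.00. Of the 9 pentose genes among the 83, 3 (33.3%) were called higher in each tumour group, against 14.7% and 16.4% of all genes. None of the 9 was called lower in cobalt tumours, and 1 was in spontaneous tumours. Ankrd37, a HIF target of uncertain role in metabolism, had the largest rise, 2.71 (6.54-fold, adjusted p = 6.86e-05) in cobalt tumours and 2.47 (5.54-fold, 0.000161) in spontaneous tumours. Hkdc1, a further hexokinase, rose by 1.30 and 1.23, Pck2, which makes phosphoenolpyruvate in mitochondria, by 1.13 and 1.25, and Pgm1, which links glycogen to glycolysis, by 1.02 and 1.43. Prps2, which makes the activated ribose for nucleotides, rose by 0.74 in cobalt tumours (adjusted p = 0.0387), and Slc2a2, the liver type glucose carrier, by 1.95 in spontaneous tumours (0.0407). Genes that fell included Pygm, the muscle glycogen phosphorylase (-2.05 in cobalt and -2.34 in spontaneous tumours), and Gyg, the primer of glycogen (-1.99 and -1.76). Pgm2l1, which makes glucose 1,6-bisphosphate, fell by 1.54 and 1.23, and Car14, a membrane carbonic anhydrase, by 1.51 and 1.86. Pgam2, the muscle phosphoglycerate mutase, fell by 1.35 in spontaneous tumours (adjusted p = 1.1e-07). Pygm and Pgam2 are muscle genes, and the heart muscle markers given with Eno3 were lower in the same arrays; their part was not tested. Car4, a membrane carbonic anhydrase of lung capillaries, fell by 2.10 in cobalt tumours (adjusted p = 0.00072). In these tumours 8 of 8 endothelial markers were called lower. Car4 was also on the list of alveolar macrophage markers, of which it was the only 1 called lower in cobalt tumours. The part of endothelium or of alveolar macrophages in its fall was not tested.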

How the data were processed

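Per the submitters' processing notes, the authors used RMA; the deposited log2 values hold 1 array per sample. No RMA version or setting is given in the sources used here. RMA in its usual form makes the distributions of the arrays alike, which can hide a shift of all genes. They lay between 3.34 and 15.26 (array medians 6.32 to 6.45) and were not transformed further, and no filter on low levels was set. For arrays, their number limits the precision. Of 45101 probe sets, 64 control probe sets were left out, 34945 had 1 symbol in the platform annotation, 932 several and 9160 none. Each gene was represented by the brightest of its single-symbol probe sets, judged by the mean of the 18 arrays, which gave 18193 genes. Groups follow the sample titles.

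Tests were made with limma 3.58.1 under R 4.3.3 (group as the only factor in lmFit, then eBayes, 1 fit over 18 arrays, two-sided), with Benjamini-Hochberg adjustment over all genes at 0.05, and the script was checked on simulated data. In the submitters' design text each tumour group is set against control lung by another program, which was not run here; the contrast of the tumour groups was added. The 39 genes, the other lists and the tests were chosen with earlier results of these data known. Genes at least 2-fold changed and called in a comparison are given with lowest, median and highest levels, others as ranges or where set against a related gene; of the other genes of glucose metabolism, the 5 largest called changes in each direction of each comparison with control lung are named. Replicate numbers are shared by the groups, but no label ties them to a mouse or batch. Alternatives were cyclic loess, no dim genes, other probe sets, trend and robust options, array weights, 12 arrays, a replicate block and a 2-fold threshold. Others were Y-linked RNA (3 genes) as a covariate, arrays with high Xist alone, arrays left out and an exact permutation test over 924 assignments. The sets of arrays left out together were chosen after seeing the data. They were control lung 1 with cobalt tumour 6, and cobalt tumour 6 with spontaneous tumours 2 and 6. Cobalt tumour 6 and spontaneous tumours 2 and 6 had the lowest mean r within their groups (0.954, 0.956 and 0.958).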

Additional observations from a re-analysis of the deposited data

Results flagged for a closer look

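Among 114 sets of 6 arrays (38 genes in 3 groups), 12 had 1 array that lay far from the other 5, where chance gives about 5% of sets. The sets come from the same 18 arrays and are not independent, so the count of 12 was not tested against that share. Control lung 1 gave 8 of them: Pfkfb4 (9.99), Hk3 (8.77), Pkm (11.57), Pgd (11.95), Tkt (12.44), Taldo1 (11.53) and Pygl (11.75) were high there, and Kdm3a (9.43) was low. Spontaneous tumour 6 gave 3, with high levels of Car9 (11.09), Tkt (13.29) and Eno3 (9.52). Cobalt tumour 5 gave 1, a high level of Pfkfb4 (9.93).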

How the results depend on the processing

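Of the genes called, 15 of 20 in cobalt and 15 of 18 in spontaneous tumours against control lung kept their call in every alternative; the others were Pkm, Slc16a1, Pdk1, Me2 and Pygl, and Eno3, Pkm and Slc16a1. No called difference changed sign. Of the genes not called, 12 of 18 in cobalt and 13 of 20 in spontaneous tumours, and 36 of 38 between the tumour groups, passed in no alternative. Pkm in cobalt tumours had an adjusted p of 0.053 with cyclic loess, and in spontaneous tumours 0.0545 without cobalt tumour 6 and spontaneous tumours 2 and 6. The second probe set of Pdk1 gave 0.45 (adjusted p = 0.053) in cobalt tumours. A threshold of 2-fold left 2099 genes called in cobalt and 1981 in spontaneous tumours against control lung. The count of listed genes called lower in cobalt tumours was 5 with array weights, without those 3 tumours and in the permutation test. The count in spontaneous tumours was 1 with the Y-linked covariate, with high Xist alone and in the permutation test. Between the tumour groups, genes called numbered 26 without the 6064 dimmest genes, 24 with array weights, 29 with the Y-linked covariate and 1 in the fit of 12 arrays. They numbered 354 without those 3 tumours, 54 without control lung 1 and cobalt tumour 6, 6 at 2-fold, and 0 with high Xist alone or by permutation, which can call genes only if at least 788 reach its smallest p. Of the listed genes 1, Kdm3a, was then called higher without the 3 tumours and without control lung 1 and cobalt tumour 6, and 1, Me1, lower without the 3 tumours. Leaving out 1 array at a time gave 5573 to 6763 genes called in cobalt and 5590 to 6517 in spontaneous tumours, with 15 to 18 and 16 to 19 listed genes higher and 2 to 4 and 2 to 2 lower. Between the tumour groups it gave 1 (without cobalt tumour 1) to 82 genes (without cobalt tumour 6), with 0 to 1 listed genes higher and 0 to 1 lower. Deviations of arrays with the same replicate number correlated at -0.338 to 0.195, so the numbers were not taken to pair the samples. With the number as a replicate block, 5784 and 5798 genes were called against control lung, with 15 and 16 listed genes higher and 3 and 2 lower, and 1 gene between the tumour groups, 0 of them listed; Pkm (0.0544) and Pygl (0.06) lost their calls in cobalt tumours. No detection calls were used, so that the dim genes Eno2 and Car12 may lie at background.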
